A study of Arabidopsis thaliana with 8 samples.

Results

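The genes described here are the intracellular immune receptor genes of Arabidopsis thaliana, and shorter relatives of them, as far as their deposited description names a Toll-Interleukin-Resistance (TIR) domain, an NB-ARC domain or a nucleotide-binding site (NBS) with leucine-rich repeats (LRR). A locus was taken when the descriptive field of any of its transcript models contained TIR-NBS, NBS-LRR, NB-ARC or Toll-Interleukin-Resistance. This gave 169 of the 25686 loci with reads in any library. By description, 84 were TIR-NBS-LRR genes, 24 were NB-ARC or NBS-LRR genes of unstated N-terminus, 23 were coiled-coil (CC) NBS-LRR genes, 21 named a TIR domain only, 13 were TIR-NBS genes without repeats and 3 were pseudogenes. The remaining locus, AT5G46500, matched only through the text on its best protein match. Relatives whose description lacks these words, such as ADR1-L1, ADR1-L2, RFL1, ZAR1, TAO1 and CHS3, were not members.

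RNA was sequenced from the wild type Col and from the mutant hag1, named for HAG1, a histone acetyltransferase, while shoots were regenerated from roots. Per genotype there were 4 groups: roots of plants grown on MS medium, root explants after 4 days on callus-inducing medium (CIM), explants after those 4 days on CIM and 2 days on shoot-inducing medium (SIM), and explants after CIM and 2 weeks on SIM. Each of the 8 groups was 1 library, so no group had a replicate. No label states whether the groups were grown as separate cultures, so the variation between libraries may be technical. Plant age and the hag1 allele were not given in the sources used here. Explants of both genotypes had been through the same media, and the roots are the one stage without culture on hormone. Tests therefore used all 8 libraries at once, with the stages standing in for replicates of the genotype and the genotypes for replicates of the stage. The spread behind each p-value is then the departure from additive stage and genotype effects. Any course that differs between the genotypes counts in it, together with variation between libraries, and these cannot be told apart.

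Plant intracellular receptors of this kind, called NLRs, bind pathogen effectors or sense what effectors do to guarded host proteins. The NB-ARC domain acts as a nucleotide-dependent switch, the leucine-rich repeats often read the ligand, and an N-terminal TIR or CC domain starts the signal. TIR domains are enzymes that act on NAD+, and their products bind EDS1 paired with PAD4 or SAG101, which engage the RPW8-type helper NLRs of the ADR1 and NRG1 families. Transcript levels of many NLR genes are held down by small RNAs, among them miR472, and salicylate treatment of leaves can raise some of them.

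The microRNA that reads the conserved P-loop sequence of CC-type receptors is shown first, because its complement recurs among the members. The mature miR472-3p, from RefSeq TAIR10.1 at chr1:4182143-4182164 on the minus strand, is printed with its seed (bases 2 to 8) in capitals. Below it stand 4 of the 22 member sites that match its complement with at most 4 mismatches over 22 bases, in RefSeq transcripts, with capitals at the mismatched bases.
miR472-3p: uUUUUCCUacuccgcccauacc
AT1G51480: ggtatgggGggagtaggaaaaa
AT1G15890: ggtatgggGggagtaggTaaaa
SUMM2: ggCatgggTggagtaggCaaaa
AT5G05400: ggtatgggGggagtaggCaaGa
The sites lay at chr1:19092853-19092874, minus strand (AT1G51480), chr1:5461946-5461967, plus strand (AT1G15890, one of the members lower on CIM), chr1:4176992-4177013, minus strand (SUMM2, which watches a MAP kinase cascade) and chr5:1599805-1599826, minus strand (AT5G05400). AT1G51480 had 1 mismatch, AT1G15890 2, and SUMM2 and AT5G05400 3. Of 24966 loci with a transcript that was scanned, 28 held such a site, and 22 of the 28 were members. The printed sites include those of the 2 site members called lower on CIM, AT1G15890 and AT5G05400. The 2 site members called higher on CIM, AT4G27190 and AT4G27220, are not among those printed.

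Promoters were read as the 250 bases before the first base of the deposited gene model, and searched on both strands for the W-box letters TTGACC and TTGACT, the core bound by WRKY transcription factors. The windows of 4 members that follow 4 different courses in the culture are printed with each W-box in capitals (AGTCAA and GGTCAA where the match is on the other strand). They come from the RefSeq sequence of TAIR10.1, whose nuclear bases are those of TAIR10.
AT4G11170: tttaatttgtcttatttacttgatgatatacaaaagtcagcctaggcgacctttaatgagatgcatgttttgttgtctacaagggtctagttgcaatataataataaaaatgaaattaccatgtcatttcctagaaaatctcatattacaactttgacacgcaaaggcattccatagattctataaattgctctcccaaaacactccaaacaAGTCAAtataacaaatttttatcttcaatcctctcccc
AT1G72900: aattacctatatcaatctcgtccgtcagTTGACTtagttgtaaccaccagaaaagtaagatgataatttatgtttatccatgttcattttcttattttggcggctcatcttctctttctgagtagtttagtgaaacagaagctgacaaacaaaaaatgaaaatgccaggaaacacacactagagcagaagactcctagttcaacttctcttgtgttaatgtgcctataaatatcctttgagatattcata
AT1G63880: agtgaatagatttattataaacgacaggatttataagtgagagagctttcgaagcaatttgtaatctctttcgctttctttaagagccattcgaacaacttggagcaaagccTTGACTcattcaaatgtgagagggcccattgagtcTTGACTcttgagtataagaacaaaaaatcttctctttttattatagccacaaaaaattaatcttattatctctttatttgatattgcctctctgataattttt
AT1G56540: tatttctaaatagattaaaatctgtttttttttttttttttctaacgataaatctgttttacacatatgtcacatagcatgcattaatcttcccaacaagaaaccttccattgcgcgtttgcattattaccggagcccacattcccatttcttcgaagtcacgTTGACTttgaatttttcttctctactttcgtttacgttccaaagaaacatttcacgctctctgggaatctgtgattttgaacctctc
These windows lie at chr4:6810877-6811126, plus strand (AT4G11170), chr1:27431945-27432194, plus strand (AT1G72900), chr1:23716125-23716374, minus strand (AT1G63880) and chr1:21181414-21181663, plus strand (AT1G56540). AT1G63880 held 2 W-boxes and each of the others 1. A W-box stood in the window of 102 of 169 members, or 60.4%, and in 28.8% of the 25535 windows of all loci. The auxin response letters TGTCTC stood in 13.0% of member windows and 12.4% of all windows, and no W-box overlapped another motif in a member.

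Libraries held between 6.96 and 7.54 times 1000000 unique reads, and 21336 to 22313 loci had reads in each. A locus with 0 reads was bounded by 3 reads, which is 0.398 to 0.431 CPM before scaling (CPM, counts per 1000000 reads, TMM-scaled in all that follows). HAG1 had 171, 204, 340 and 156 reads in Col roots, CIM, SIM 2 days and SIM 2 weeks, and 21, 8, 16 and 13 in hag1. The tissue changed with the stage: 6 root hair and endodermis markers summed to 964 CPM in Col roots and 475 CPM in hag1 roots, and to 1.42 and 0.553 CPM on CIM, where RSL4 had 0 reads in both libraries. The 5 green tissue markers summed to 134.5 CPM in Col roots and 96.7 CPM in hag1 roots. On CIM and at SIM 2 days they summed to 18.6 to 22.0 CPM, and after 2 weeks on SIM to 480 CPM in Col and 260 CPM in hag1. In such whole explants, fewer cells of a type and less RNA per cell cannot be told apart.

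Together the 169 receptor genes took 0.171% of the unique reads in Col roots and 0.422% on CIM, then 0.329% after 2 days and 0.275% after 2 weeks on SIM. The shares in hag1 were 0.223, 0.401, 0.281 and 0.270% at the same stages. Scaled by TMM, the members summed to 1903, 3862, 2957 and 2871 CPM in Col and to 2253, 3968, 2713 and 2978 CPM in hag1. Both CIM libraries were above all other libraries and both root libraries below them. The sum on CIM was 2.03 times that in roots in Col and 1.76 times in hag1. The TIR-NBS-LRR class held the most, at 1133 CPM in Col roots and 2241 on CIM, against 1369 and 2348 CPM in hag1. The TIR-only class went from 126 to 553 CPM in Col and from 157 to 560 CPM in hag1. A large part of this was 1 gene, AT1G72900, with 202 and 1813 reads in Col and 368 and 1900 reads in hag1. Without that gene, all other members summed to 1873 CPM in Col roots and 3628 CPM on CIM, and to 2201 and 3705 CPM in hag1. TIR-NBS genes summed to 109 CPM in Col roots and 125 CPM on CIM, and to 79.8 and 107 CPM in hag1.

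**Figure D1:**
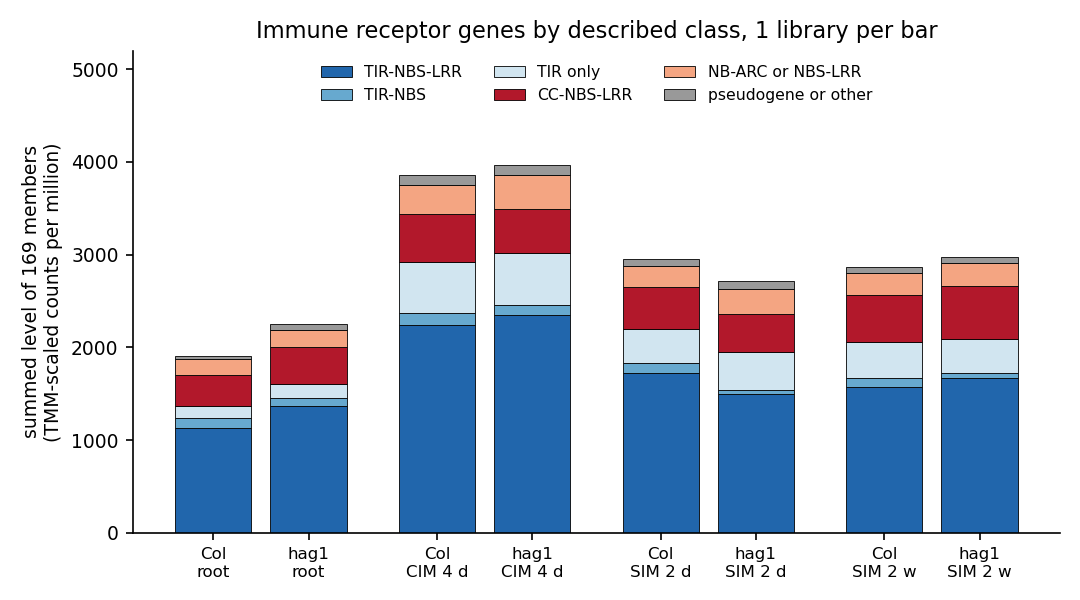
Summed level of the 169 immune receptor genes in each library (y axis, TMM-scaled CPM), stacked by described class; each bar is 1 library, in pairs of Col and hag1 from root to 2 weeks on SIM. The CIM bars reach 3862 and 3968 CPM, above the 1903 and 2253 CPM of the root bars.

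Per length, most members were expressed at low levels. Between 96 and 112 of 169 had at least 1 RPKM (deposited values scaled for model length and library depth) in a library, and 142 to 157 had any read. The median member stood at 1.67 RPKM in Col roots and 2.97 RPKM on CIM, against 3.90 and 4.01 RPKM for all loci. In hag1 it stood at 2.00 and 2.95 RPKM, against 4.18 and 3.32 RPKM for all loci, a smaller gap on CIM. AT1G72900, a gene described with a TIR domain only, had the highest mean of any member, with 19.6, 188, 139 and 113 RPKM in Col and 37.9, 195, 178 and 109 RPKM in hag1, in the order root, CIM, SIM 2 days and SIM 2 weeks that is kept below. It was lowest in the root libraries of both genotypes. Its neighbour AT1G72940 came next with 11.2, 61.6, 56.1 and 57.7 RPKM in Col and 23.5, 64.2, 46.6 and 67.1 RPKM in hag1. The TIR-NBS-LRR gene AT5G40910 followed with 17.5, 56.0, 48.4 and 42.7 RPKM in Col and 43.8, 38.8, 35.9 and 35.1 RPKM in hag1, and its low library was the Col root. The helper ADR1, which passes on signals from sensor NLRs, had 14.1, 43.2, 43.8 and 49.7 RPKM in Col and 28.0, 27.3, 38.7 and 54.0 RPKM in hag1. AT2G20142 and AT1G72920, both described by a TIR domain only, completed the 6 with mean levels of 32.6 and 28.5 RPKM. AT1G72920 shares 96.3% identity over 61.3% of its transcript with AT1G72940, so reads of these neighbours may be divided between them.

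The step from root to CIM moved the most members. Of 135 members with enough reads to be tested, 46 were higher and 14 lower on CIM than in roots (edgeR quasi-likelihood test, adjusted p under 0.05). Among all 18710 loci tested, 12.7% were higher and 17.0% lower, 29.7% in all. The median member had a log2 difference of 0.62, against 0.01 for all loci, and 93 of 135 members were above 0. DESeq2 called 48 higher and 14 lower, where it called 12.3% and 18.4% of all loci (30.7% in all). Of these, 45 and 14 were among the edgeR calls. Refits without 1 library, here and below, have less data to estimate the spread, and no share of all loci is given for them. A lower count of members in a refit cannot be told from a general loss of power. Without the Col root library the counts were 21 and 4, without Col CIM 26 and 1, without hag1 CIM 26 and 7, and without hag1 root 36 and 7. All 60 calls kept their sign in each refit that left out 1 library, and 17 stayed called in every one.

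**Figure D2:**
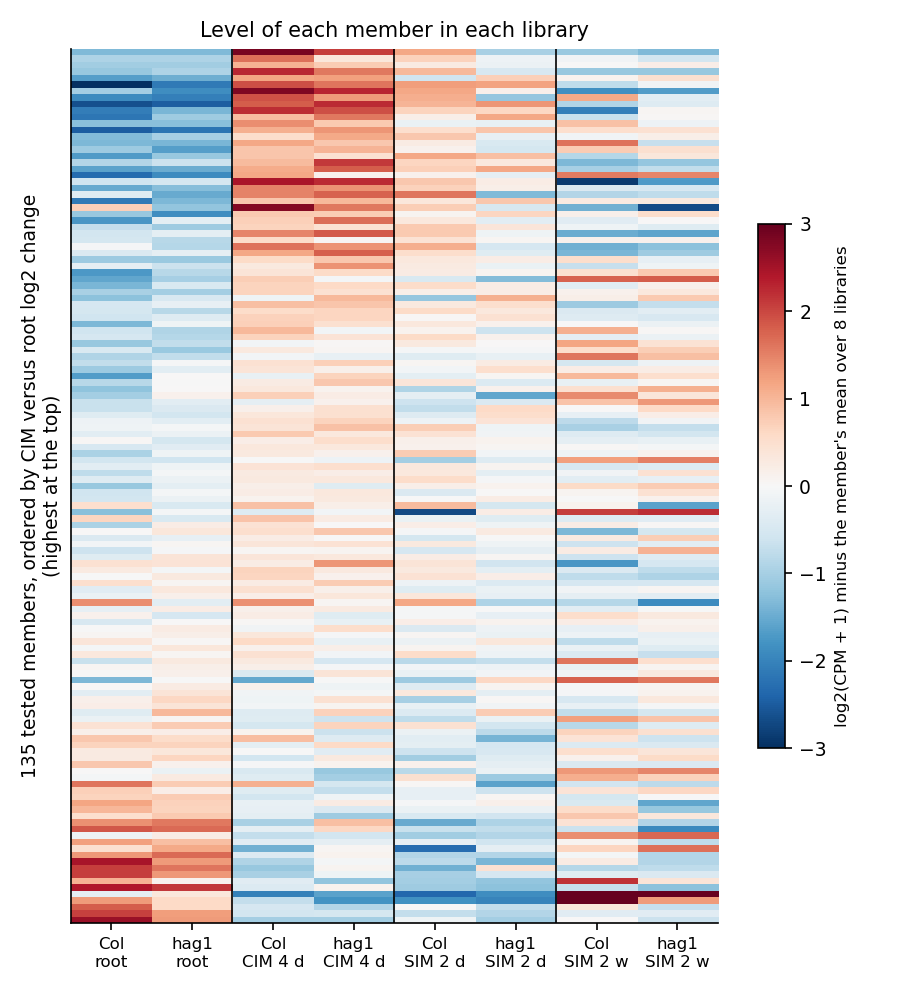
Level of each of the 135 tested members (rows, ordered from the highest to the lowest log2 change on CIM) in the 8 libraries (columns), as log2(CPM + 1) minus the member's own mean; red is above and blue below that mean. Members at the top are mostly blue in the root columns and those at the bottom red there; 46 members were called higher and 14 lower on CIM.

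By class, the TIR-only genes had the highest median log2 difference on CIM, 1.81, with 8 of 14 higher and 1 lower. Of 71 tested TIR-NBS-LRR genes 23 were higher and 6 lower, with a median of 0.50. The NB-ARC or NBS-LRR genes counted 7 higher and 2 lower of 19, and the CC-NBS-LRR genes 4 and 2 of 17. The TIR-NBS genes counted the same number both ways, with 3 of 11 higher and 3 lower. Differences between classes were not tested.

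The lowest adjusted p of a member in this comparison belonged to AT4G11170 (chr4:6811127-6817130, plus strand), a TIR-NBS-LRR gene with 2.80, 81.9, 47.1 and 11.7 CPM in Col and 3.26, 112, 58.4 and 17.0 CPM in hag1. All 6 explant libraries were above both root libraries (log2 difference 4.98, SE 0.20, edgeR adjusted p = 0.000655). AT2G14080, of the same class, had 3.24, 47.8, 32.0 and 32.4 CPM in Col and 4.11, 57.1, 40.3 and 31.0 CPM in hag1, and again the root libraries were the low ones (log2 difference 3.83, SE 0.22, edgeR adjusted p = 0.000894). AT1G59780, described by an NB-ARC domain, had 12.5, 88.9, 67.4 and 19.8 CPM in Col and 13.9, 145, 92.0 and 23.7 CPM in hag1. Its 2 CIM libraries were the highest of their genotypes (log2 difference 3.11, SE 0.21, edgeR adjusted p = 0.00113).

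Several members were all but unread in roots. AT4G11340, a TIR-NBS-LRR gene, had 0, 131, 38 and 1 reads in Col and 0, 69, 2 and 0 reads in hag1. With the root counts bounded at 3 reads, it was at least 38.3-fold higher on CIM in Col and at least 22.5-fold in hag1 (edgeR adjusted p = 0.0104). AT1G09665, described by a TIR domain, had 0, 73, 27 and 0 reads in Col and 1, 40, 4 and 0 reads in hag1, so that only explants of the CIM and SIM 2 days stages held more than 1 read. AT1G17600, a TIR-NBS-LRR gene, had 0, 230, 149 and 25 reads in Col and 6, 169, 126 and 43 reads in hag1 (log2 difference 5.94, SE 0.79, edgeR adjusted p = 0.00529). Its neighbour CHS1, a TIR-NBS gene whose mutants are damaged by chilling, had 0, 25, 12 and 7 reads in Col and 0, 18, 6 and 9 reads in hag1. This was at least 7.30-fold higher on CIM in Col and at least 5.86-fold in hag1 (edgeR adjusted p = 0.00868). AT1G58390, a CC-NBS-LRR gene, had 0, 48, 9 and 16 reads in Col and 1, 46, 30 and 23 reads in hag1 (log2 difference 6.24, SE 0.89, edgeR adjusted p = 0.00639). In each of these 5 genes the CIM counts of both genotypes were above both root counts.

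Named TIR-type sensors were among the members that rose. Of 20 characterised TIR-type sensor genes on a list, of which 17 were members, 11 were higher on CIM and 0 lower, with a median log2 difference of 0.90. RPP4, which recognises the downy mildew pathogen, had 2.80, 41.2, 19.4 and 54.6 CPM in Col and 4.11, 19.4, 14.5 and 51.0 CPM in hag1, with both root libraries the lowest (log2 difference 3.05, SE 0.41, edgeR adjusted p = 0.00537). RPP1, from a locus with alleles against the same pathogen, had 49.8, 158, 112 and 108 CPM in Col and 48.3, 136, 115 and 123 CPM in hag1. It too was lowest in the root libraries (log2 difference 1.58, SE 0.16, edgeR adjusted p = 0.00305). VICTR, which acts in the root growth response to a small molecule, had 10.8, 92.7, 53.2 and 23.9 CPM in Col and 12.7, 84.2, 36.6 and 22.8 CPM in hag1, with the CIM libraries highest (log2 difference 2.90, SE 0.24, edgeR adjusted p = 0.00177); its transcript shares 96.5% identity with AT5G46510 over 79.4% of its length, so reads may be divided.

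Smaller rises were seen in other TIR-type sensors. RPS4, which works with RRS1 against bacterial effectors, had 39.5, 85.6, 66.2 and 37.1 CPM in Col and 43.3, 61.0, 45.9 and 33.2 CPM in hag1 (log2 difference 0.80, SE 0.22, edgeR adjusted p = 0.04). CSA1, the partner of CHS3, had 12.5, 39.4, 21.3 and 42.3 CPM in Col and 10.1, 18.4, 12.3 and 20.1 CPM in hag1 (log2 difference 1.26, SE 0.26, edgeR adjusted p = 0.0177). Every CIM value of RPS4 and CSA1 was above both root values. RPS6, needed for resistance to a bacterial effector, changed least of the called list members, with 69.7, 111, 102 and 103 CPM in Col and 91.3, 127, 121 and 114 CPM in hag1 (log2 difference 0.58, SE 0.15, edgeR adjusted p = 0.0336). RLM1, a locus for resistance to the fungus Leptosphaeria maculans, had 0 reads in both roots and 38 and 10 on CIM in Col and hag1, at least 11.1-fold and at least 3.26-fold higher (edgeR adjusted p = 0.00666). Leaving out any 1 of the 8 libraries ended the call of RPS6, and RPS4 stayed called in 1 of the 8 refits. AT5G41750 was called as well (log2 difference 1.90, SE 0.38, edgeR adjusted p = 0.0166), but it has 2 transcript models, so its unique counts are uncertain. The list's remaining called genes were TAO1 and CHS3, which were not members, and AT1G17600, described above.

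Of 11 characterised CC-type sensors, 9 were members, and 5 of the 8 tested list genes were higher on CIM and 0 lower. RPS2, which guards RIN4 and detects a bacterial protease, had 4.13, 12.5, 7.78 and 2.40 CPM in Col and 5.10, 11.9, 9.25 and 3.43 CPM in hag1 (log2 difference 1.41, SE 0.28, edgeR adjusted p = 0.0156). RPP13, another locus against downy mildew, had 6.04, 33.6, 14.1 and 70.1 CPM in Col and 9.34, 18.9, 7.46 and 72.4 CPM in hag1 (log2 difference 1.71, SE 0.41, edgeR adjusted p = 0.029). Root values of RPS2 and RPP13 lay below the CIM values in both genotypes. CW9 had a log2 difference of 1.63 (edgeR adjusted p = 0.0244), and AT1G58602, with 2 transcript models, a difference of 4.20 (edgeR adjusted p = 0.00525). The list's other called gene, RFL1, was not a member.

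The RPW8-type helpers, which carry the signal of many sensors, divided. Of 6 listed, 5 were tested, and 3 were higher and 1 lower on CIM. The higher ones were the member AT5G66910, with 46.3, 76.7, 71.4 and 40.8 CPM in Col and 52.2, 82.1, 60.4 and 44.0 CPM in hag1 (log2 difference 0.69, SE 0.17, edgeR adjusted p = 0.0319), and the non-members ADR1-L1 and ADR1-L2. AT5G66900, next to AT5G66910 on chromosome 5, went the other way with 23.0, 10.5, 11.4 and 18.5 CPM in Col and 16.0, 8.02, 8.56 and 21.8 CPM in hag1 (log2 difference -1.07, SE 0.27, edgeR adjusted p = 0.0323). Its CIM and SIM 2 days libraries lay below its root libraries in both genotypes. The calls of AT5G66910 and AT5G66900 each held in 2 of 8 refits that left out 1 library. ADR1 itself was not called on CIM, with a log2 difference of 0.62 (edgeR adjusted p = 0.199): its level was 44.1 CPM in Col roots and 79.7 CPM in hag1 roots, against 111 and 76.1 CPM on CIM.

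Truncated receptors, which have a TIR domain but lack the repeats, included some of the steepest changes. AT4G19925 had 1.03, 27.5, 8.26 and 0.150 CPM in Col and 0.142, 18.9, 3.59 and 0.298 CPM in hag1, with the CIM libraries highest (log2 difference 5.38, SE 0.57, edgeR adjusted p = 0.00314). The adjacent AT4G19920 had 14.2, 61.5, 14.6 and 2.40 CPM in Col and 3.11, 26.8, 5.66 and 0.447 CPM in hag1 (log2 difference 2.56, SE 0.33, edgeR adjusted p = 0.00509). Both genes were lowest after 2 weeks on SIM in Col, and the hag1 SIM 2 weeks values were at most 0.447 CPM. AT3G04210, a TIR-NBS gene, had 0.590, 21.1, 11.7 and 12.0 CPM in Col and 0.425, 13.4, 1.66 and 3.73 CPM in hag1 (log2 difference 5.17, SE 0.70, edgeR adjusted p = 0.00565). AT1G72900 rose with a log2 difference of 2.64 (edgeR adjusted p = 0.00206).

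The 14 members that were lower on CIM came from 5 classes. AT5G45200, a TIR-NBS-LRR gene, had 76, 0, 7 and 7 reads in Col and 28, 0, 0 and 2 reads in hag1, at least 28.9-fold lower on CIM in Col and at least 9.55-fold in hag1 (edgeR adjusted p = 0.008). AT4G08450 had 45, 2, 1 and 3 reads in Col and 24, 2, 0 and 3 reads in hag1 (log2 difference -4.11, SE 0.60, edgeR adjusted p = 0.00679). AT1G56540 had 77, 6, 1 and 3 reads in Col and 65, 11, 0 and 0 reads in hag1 (log2 difference -3.13, SE 0.68, edgeR adjusted p = 0.0209). For these 3 genes, every explant library had fewer reads than either root library, and their calls held in 7 (AT5G45200), 6 (AT4G08450) and 4 (AT1G56540) of 8 refits. AT5G05400, with the miR472 site printed above, had 192, 17, 13 and 19 reads in Col and 143, 46, 62 and 21 reads in hag1 (log2 difference -2.73, SE 0.72, edgeR adjusted p = 0.0361). The TIR-NBS genes AT4G09420 and AT1G72870 had log2 differences of -3.35 and -2.78 (edgeR adjusted p = 0.011 and 0.0187). The root hair and endodermis markers fell over the same step, all 6 of them, and their part in these decreases was not tested.

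**Figure D3:**
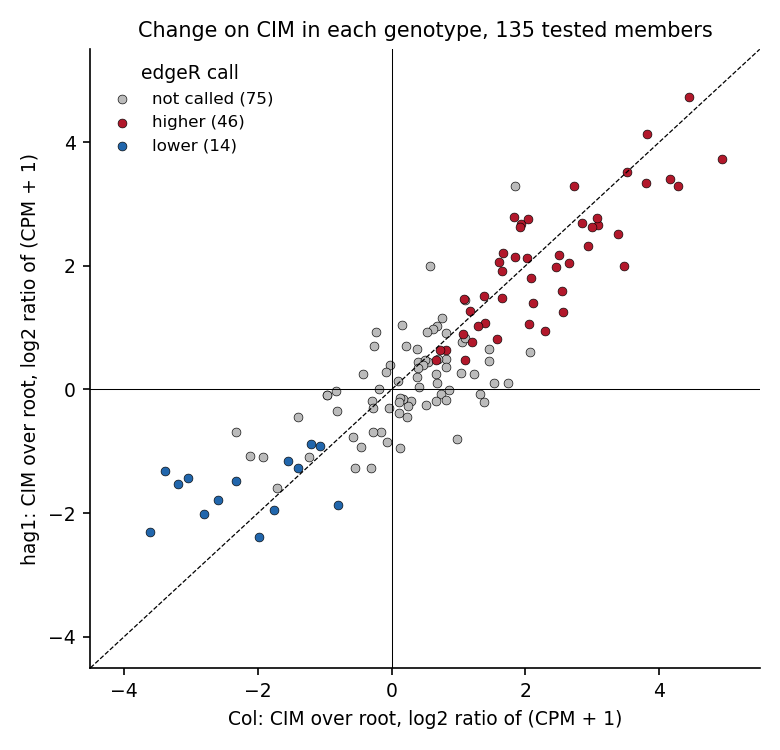
Change of each of the 135 tested members between root and CIM, as the log2 ratio of (CPM + 1) in Col (x axis) and in hag1 (y axis); each point is 1 member, coloured by the edgeR call (46 higher, 14 lower, 75 not called), and the dashed line marks equal change. All 46 members called higher lie above 0 on both axes and all 14 called lower lie below 0 on both.

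Genes around the receptors were counted from lists. Of 11 tested NLR signalling partners, 6 were higher on CIM and 0 lower. PAD4, the lipase-like partner of EDS1, had 89.6, 775, 359 and 72.0 CPM in Col and 93.3, 563, 246 and 92.4 CPM in hag1 (log2 difference 2.86, SE 0.28, edgeR adjusted p = 0.00257). SAG101, the other EDS1 partner, had a log2 difference of 2.25 (edgeR adjusted p = 0.00576), and EDS1, which has 2 transcript models, one of 3.04 (edgeR adjusted p = 0.00294). Of 10 tested salicylate output genes 7 were higher and 0 lower, with a median of 3.18. PBS3, which conjugates the salicylate precursor, had 4.57, 923, 406 and 27.5 CPM in Col and 4.11, 646, 188 and 37.9 CPM in hag1 and was lowest in roots. Of 14 tested genes that control NLR levels, 1 was higher, SGS3, which acts in secondary small RNA formation, with a log2 difference of 1.55 (edgeR adjusted p = 0.0149). Of 6 pattern receptors and partners 1 was higher, the kinase BIK1, and 1 lower, the flagellin receptor FLS2, which had 25, 0, 1 and 234 reads in Col and 12, 2, 2 and 177 reads in hag1. Of 5 callus and auxin markers 2 were higher, GH3.3 and PLT1, GH3.3 with 23516 reads in Col and 25142 in hag1 on CIM.

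After 2 days on SIM most members had moved down from their CIM level, without a call. None of 135 passed edgeR (0 higher, 0 lower), where 0.0695% of all loci did, 0.0641% higher and 0.00534% lower. At an unadjusted p under 0.05 there were 34 members, as against 1987 of all 18710 loci. limma called 0 (0.0962% of all loci, 0.0748% higher and 0.0214% lower) and DESeq2 called 0 higher and 5 lower (3.03% of all loci, 1.58% higher and 1.45% lower). In simulated counts edgeR recovered 6% of 2-fold changes for this comparison. The median log2 difference was -0.44, against 0.00 for all loci, and 114 of 135 members were below 0. The 5 members that DESeq2 called were AT4G19920, AT4G16920, AT4G19925, VICTR and AT4G11170. AT4G19920 had the lowest adjusted p under both tools (log2 difference -2.18; DESeq2 adjusted p = 0.000326, edgeR adjusted p = 0.115). AT4G16920, a TIR-NBS-LRR gene of the RPP4 neighbourhood, went from 93.6 to 29.3 CPM in Col and from 80.5 to 19.1 CPM in hag1.

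Between 2 days and 2 weeks on SIM the members divided. edgeR called 13 of 135 higher and 11 lower, against 7.09% higher, 4.31% lower and 11.4% in all among all loci, and the median was -0.04. With total counts as the scaling, 8 were higher and 12 lower. Under that scaling the median of all loci was -0.19 here and 0.17 between root and CIM, against 0.01 and 0.01 under TMM. DESeq2 called 19 and 19, and 9.95% and 7.04% of all loci (17.0% in all). All 24 calls kept their sign in each refit that left out 1 library. Fewer members were called without any 1 library of the step, which cannot be told from a general loss of power. Some calls, that of AT1G61180 among them, were also lost without a library of another stage. AT1G63880 was the 1 member called in every refit.

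AT1G63880 (chr1:23712276-23716124, minus strand), a TIR-NBS-LRR gene, had 22, 2, 0 and 500 reads in Col and 39, 5, 3 and 508 reads in hag1. The 2 libraries from 2 weeks on SIM were far above all others, and the CIM and SIM 2 days libraries were below the roots. In Col this was at least 206-fold higher than after 2 days on SIM, and in hag1 the log2 ratio was 7.51 (95% interval 5.96 to 9.80; counting error only), with edgeR adjusted p = 0.00516. AT4G09420, a TIR-NBS gene, followed this course with 58, 11, 1 and 227 reads in Col and 35, 1, 0 and 58 reads in hag1 (log2 difference 8.01, SE 0.79, edgeR adjusted p = 0.00777). AT5G40060 had 25, 6, 1 and 61 reads in Col and 10, 0, 0 and 13 reads in hag1 (log2 difference 6.11, SE 0.90, edgeR adjusted p = 0.017). AT1G63360, a CC-NBS-LRR gene with a miR472 site of 3 mismatches, had 6, 2, 0 and 30 reads in Col and 10, 3, 1 and 39 reads in hag1 (log2 difference 5.99, SE 0.69, edgeR adjusted p = 0.00966).

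Better read members also rose late. RPP13 reached 70.1 CPM in Col and 72.4 CPM in hag1 after 2 weeks, its highest level in both (log2 difference 2.76, SE 0.41, edgeR adjusted p = 0.0177). RPP4 rose again to 54.6 and 51.0 CPM (log2 difference 1.65, SE 0.36, edgeR adjusted p = 0.041). LAZ5, known from a suppressor screen of cell death, had 8.55, 5.94, 4.37 and 22.2 CPM in Col and 7.22, 3.32, 7.46 and 25.3 CPM in hag1, and both 2-week libraries stood above the other 6 (log2 difference 2.01, SE 0.40, edgeR adjusted p = 0.0335). AT1G58848 was called with a log2 difference of 2.56 (edgeR adjusted p = 0.0184), but it is 99.3% identical to AT1G59218 over 89.1% of its transcript. Of 8 refits without 1 library, RPP13 and RPP4 stayed called at this step in 4 each and LAZ5 in 2. Over the same step 4 of 5 green tissue markers rose, and their part in the late rises was not tested.

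The 11 members that fell after 2 days on SIM included several that had risen on CIM. AT4G16920 had 10.3, 93.6, 29.3 and 1.35 CPM in Col and 10.9, 80.5, 19.1 and 4.32 CPM in hag1 over the culture (log2 difference -3.09, SE 0.51, edgeR adjusted p = 0.0224). AT5G41550, of the same class, had 19.0, 80.6, 50.2 and 9.45 CPM in Col and 22.9, 104, 25.8 and 8.79 CPM in hag1 (log2 difference -2.04, SE 0.36, edgeR adjusted p = 0.0261). In both genes and both genotypes the 2-week library was the lowest of the 4. AT4G11170 and AT1G59780 fell by 1.89 and 1.86 on the log2 scale (edgeR adjusted p = 0.00693 and 0.00849), and AT4G19925 and AT4G19920 had log2 differences of -4.55 and -2.93 (edgeR adjusted p = 0.0177 and 0.0143). RPS2 went down to 2.40 CPM in Col and 3.43 CPM in hag1 (log2 difference -1.55, SE 0.29, edgeR adjusted p = 0.0291), a call that held in 3 of 8 refits. Among the genes around the receptors, 4 of 11 signalling partners were lower, EDS1 and PAD4 among them with log2 differences of -1.98 and -1.86 (edgeR adjusted p = 0.0187 and 0.0165). Of 10 salicylate output genes 6 were lower and 0 higher.

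Over the whole culture, 34 of 135 members were higher after 2 weeks on SIM than in roots and 20 were lower (edgeR), against 11.9% and 14.9% of all loci, 26.8% in all. The median log2 difference was 0.33, or 0.19 when the 4 members without reads in a stage were set to their bound, against 0.04 for all loci. This median moved with the libraries and members used: it lay between 0.04 (without hag1 SIM 2 weeks) and 0.34 (without hag1 root) when 1 library was left out, at 0.03 without the low-count filter, at 0.09 with limma and at 0.16 without members that have a near-identical copy. This comparison shares the root libraries with the root to CIM step and the 2-week libraries with the step before. Without Col root the counts were 11 and 0, without Col SIM 2 weeks 14 and 7, without hag1 root 20 and 6, and without hag1 SIM 2 weeks 15 and 5. Called in every refit were AT1G63880, AT1G72900, AT1G72940, AT2G14080, RPP1, RPP13, AT4G11170 and RPP4, all higher. RPP4 had a log2 difference of 3.91 (edgeR adjusted p = 0.00531), RPP13 of 3.19 (edgeR adjusted p = 0.00788) and RPP1 of 1.23 (edgeR adjusted p = 0.00782).

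Of the list genes, the helper ADR1 was higher at 2 weeks than in roots, with 44.1 against 146 CPM in Col and 79.7 against 168 CPM in hag1 (log2 difference 1.35, SE 0.33, edgeR adjusted p = 0.032). RPM1, a second guard of RIN4, had 8.26, 13.8, 9.11 and 15.9 CPM in Col and 13.0, 14.1, 10.9 and 28.3 CPM in hag1 (log2 difference 1.04, SE 0.28, edgeR adjusted p = 0.0406). Leaving out any 1 of the 8 libraries ended the call of RPM1, and that of ADR1 held in 3 of 8 refits. Of 20 listed TIR-type sensors 9 were higher and 0 lower, and 3 of 8 CC-type sensors were higher and 0 lower. RPP5 was called (log2 difference 1.64, SE 0.35, edgeR adjusted p = 0.0228) but has 2 transcript models. At the other end, AT1G56540 and AT5G45200 stayed low, with log2 differences of -5.42 and -3.53 (edgeR adjusted p = 0.0113 and 0.0233). AT5G45210, next to AT5G45200, had 20.8, 4.00, 2.79 and 2.85 CPM in Col and 18.5, 8.30, 2.62 and 0.596 CPM in hag1 (log2 difference -3.52, SE 0.69, edgeR adjusted p = 0.0181). AT4G23515 had 8.85, 8.65, 7.29 and 1.05 CPM in Col and 1.98, 2.90, 0.967 and 0 CPM in hag1, with the 2-week library the lowest of each genotype (log2 difference -3.44, SE 0.69, edgeR adjusted p = 0.0194).

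**Figure D4:**
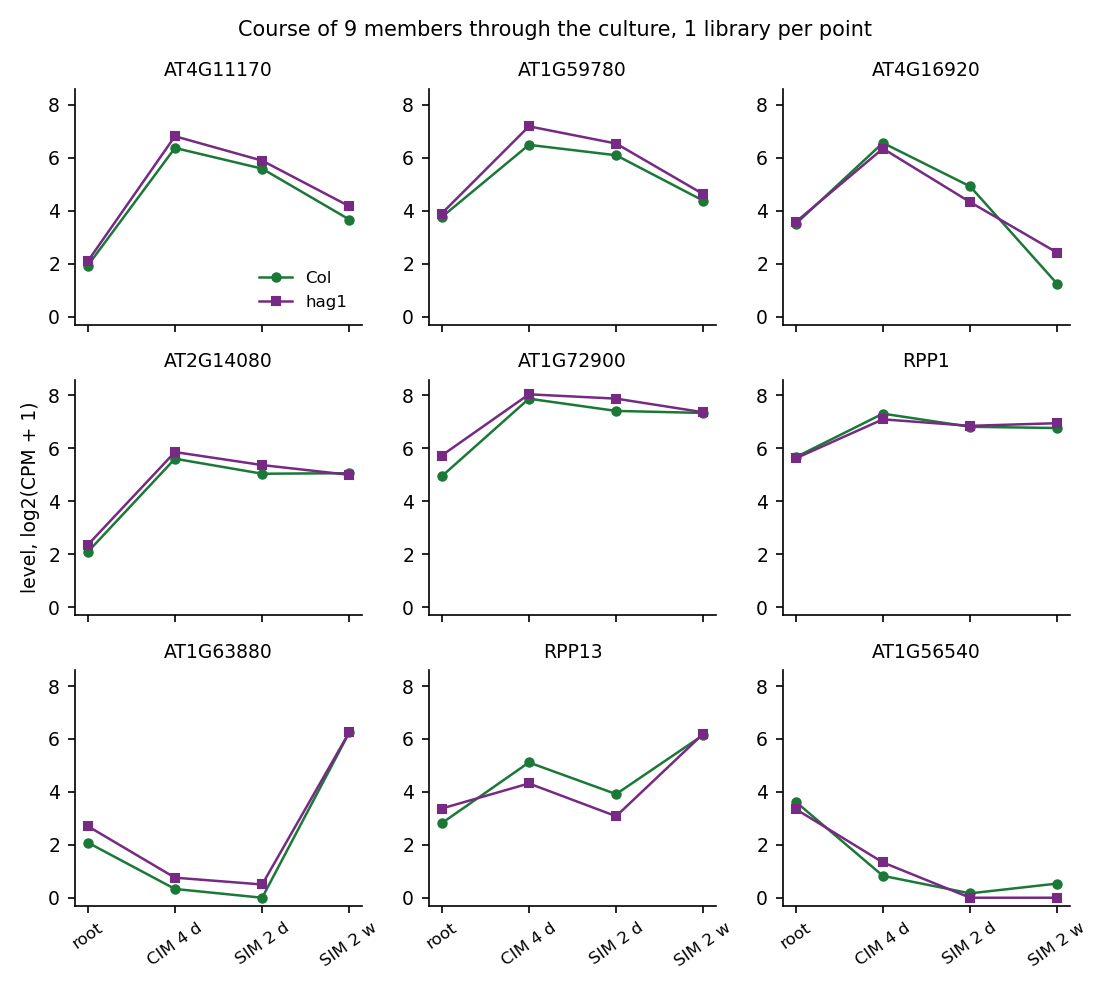
Level of 9 members in the 4 stages (x axis) as log2(CPM + 1) (y axis), with circles for Col and squares for hag1; each point is 1 library. AT4G11170, AT1G59780 and AT4G16920 peak on CIM, AT2G14080, AT1G72900 and RPP1 stay above the root level, AT1G63880 and RPP13 are highest after 2 weeks on SIM, and AT1G56540 is highest in roots.

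Across the comparisons, 16 members rose on CIM, had no call within SIM and were still higher than roots after 2 weeks. Another 20 rose on CIM with neither later call. AT4G16920, AT4G19920, AT4G19925, RPS2, AT5G18350, AT5G41550, AT1G59780 and AT4G11170 rose on CIM and fell between 2 days and 2 weeks on SIM. AT1G63880, AT4G09420 and AT5G40060 were the 3 that fell on CIM and rose late (the CIM call of AT5G40060 was lost in each of 8 refits), and 9 fell on CIM and were still lower than roots at the end. The stage of the highest level was the same in both genotypes for 95 of 135 members, namely CIM for 45, SIM 2 weeks for 28, root for 21 and SIM 2 days for 1. Neither these stages nor the courses above were counted over all loci. Whether such counts are particular to the members was therefore not tested.

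Across the 4 stages, no member passed the test for a genotype difference. edgeR called 0 higher and 0 lower of 135, where 0.433% of all loci were called (0.241% higher and 0.192% lower), and the median log2 difference of hag1 to Col was 0.03, or -0.02 with total counts as the scaling, against -0.02 and -0.06 for all loci. At an unadjusted p under 0.05 there were 28 members, as against 3845 of all 18710 loci, and limma called 0 (0.0107% of all loci). DESeq2 called 2 higher and 7 lower, where it called 1.96% of all loci higher and 4.87% lower (6.83% in all). The lowest edgeR value belonged to AT4G19920, which was lower in hag1 at each of the 4 stages: 14.2 against 3.11 CPM in roots, 61.5 against 26.8 on CIM, 14.6 against 5.66 after 2 days and 2.40 against 0.447 after 2 weeks on SIM (log2 difference -1.63, SE 0.25, edgeR adjusted p = 0.065; DESeq2 adjusted p = 0.000313). Without the low-count filter edgeR called this gene too (1 lower).

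Among the other members lower in hag1 with at least 50 reads in all, the neighbours AT4G23510 and AT4G23515 on chromosome 4 had the lowest p. AT4G23510, a TIR-NBS-LRR gene, had 38.3, 50.2, 52.6 and 29.1 CPM in Col and 19.3, 30.8, 18.4 and 8.20 CPM in hag1 (log2 difference -1.25, SE 0.22, edgeR adjusted p = 0.0767; DESeq2 adjusted p = 0.000359). AT4G23515, a TIR-only gene, had the log2 difference -2.28 (SE 0.42, edgeR adjusted p = 0.0809; DESeq2 adjusted p = 0.00113). In each, hag1 was below Col at every stage. CSA1 was also lower in hag1 at each stage, by the values given above (log2 difference -0.83, SE 0.18, edgeR adjusted p = 0.1; DESeq2 adjusted p = 0.0143). AT5G44900 and AT5G40060 had log2 differences of -1.61 and -2.06 (edgeR adjusted p = 0.0886 and 0.116) and neither tool called them.

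On the higher side, AT5G18360 had 17.5, 14.2, 7.41 and 11.0 CPM in Col and 24.8, 21.7, 16.2 and 19.8 CPM in hag1, above Col at every stage (log2 difference 0.77, SE 0.17, edgeR adjusted p = 0.101; DESeq2 adjusted p = 0.0431). AT1G63350, a CC-NBS-LRR gene, had 2.36, 6.20, 2.55 and 7.95 CPM in Col and 4.67, 14.5, 15.6 and 12.7 CPM in hag1 (log2 difference 1.36, SE 0.36, edgeR adjusted p = 0.128; DESeq2 adjusted p = 0.0394). AT5G38850, AT4G11170, AT5G38350 and AT5G46450 were the others with the lowest p on this side, with log2 differences of 0.62, 0.39, 0.41 and 1.23. Their edgeR adjusted p values lay between 0.124 and 0.184. The root markers also stood lower in hag1 roots, at 475 against 964 CPM, and their part in these differences was not tested.

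Within a stage there is 1 library per genotype, so ratios carry counting intervals and no test. In roots, 8 of 86 members with at least 50 reads in either library were at least 2-fold higher in hag1 and 5 lower, against 4.39% and 7.83% of all loci with such reads (12.2% in all). On CIM 8 of 95 were higher and 7 lower (5.01%, 7.64% and 12.6% of all loci). After 2 days on SIM 8 of 83 were higher and 9 lower (5.48%, 9.61% and 15.1%), or 14 lower with total counts as the scaling. After 2 weeks on SIM 2 of 85 were higher and 9 lower (2.6%, 11.6% and 14.2%).

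In hag1 roots, AT1G72920 had 192 reads in hag1 against 53 in Col (log2 ratio 1.80, 95% interval 1.35 to 2.27); as said, its reads may be divided with AT1G72940. AT5G58120 had 281 reads in hag1 against 95 in Col (log2 ratio 1.51, 95% interval 1.17 to 1.86) and AT5G46450 69 reads in hag1 against 22 in Col (log2 ratio 1.59, 95% interval 0.88 to 2.35). AT4G19920 lay at the other end with 22 reads in hag1 against 96 in Col (log2 ratio -2.18, 95% interval -2.92 to -1.50). On CIM, AT5G46450 was highest with 71 reads in hag1 against 21 in Col (log2 ratio 1.86, 95% interval 1.14 to 2.63), and AT1G72850, a TIR-NBS gene, was lowest with 25 reads in hag1 against 96 in Col (log2 ratio -1.84, 95% interval -2.54 to -1.20). AT4G23515 followed with 21 reads in hag1 against 67 in Col (log2 ratio -1.58, 95% interval -2.36 to -0.85), and AT3G25510 had 39 reads in hag1 against 116 in Col (log2 ratio -1.47, 95% interval -2.04 to -0.94).

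After 2 days on SIM the spread was wider. AT5G46270, a TIR-NBS-LRR gene, had 115 reads in hag1 against 10 in Col (log2 ratio 3.71, 95% interval 2.78 to 4.81). AT1G63350 had 113 reads in hag1 against 21 in Col (log2 ratio 2.61, 95% interval 1.93 to 3.36). The lowest ratio was that of AT1G66090, a TIR-NBS gene, with 29 reads in hag1 against 307 in Col (log2 ratio -3.22, 95% interval -3.82 to -2.67); at the other stages its levels were 8.85 against 3.40 CPM, 34.4 against 42.2 CPM and 5.85 against 6.41 CPM in Col and hag1. AT3G04210, of the same class, had 12 reads in hag1 against 96 in Col (log2 ratio -2.81, 95% interval -3.82 to -1.94). After 2 weeks AT4G14370 was highest with 199 reads in hag1 against 79 in Col (log2 ratio 1.32, 95% interval 0.94 to 1.72) and AT1G72910 lowest with 10 reads in hag1 against 77 in Col (log2 ratio -2.95, 95% interval -4.07 to -2.00). The late risers AT4G09420 and AT5G40060 were lower in hag1 at this stage, with 58 reads in hag1 against 227 in Col (log2 ratio -1.98, 95% interval -2.42 to -1.56) and 13 reads in hag1 against 61 in Col (log2 ratio -2.24, 95% interval -3.23 to -1.36), whereas AT1G63880 had 508 reads in hag1 and 500 in Col.

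**Figure D5:**
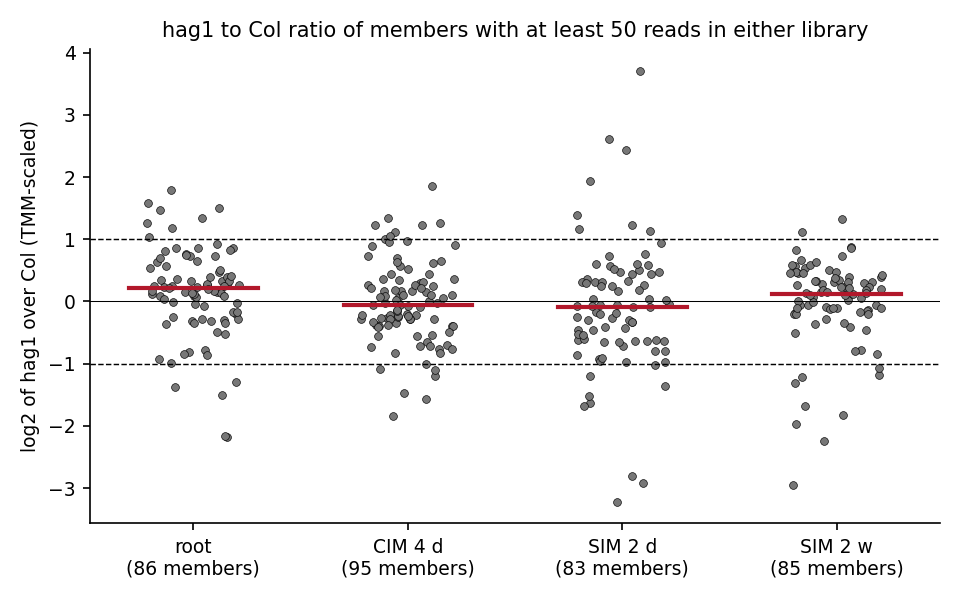
log2 ratio of hag1 to Col (y axis, TMM-scaled) for each member with at least 50 reads in either library, by stage (x axis); each point is 1 member, red lines are medians and dashed lines mark 2-fold. Medians lie at 0.21, -0.05, -0.10 and 0.12 from root to SIM 2 weeks, and points range most widely after 2 days on SIM.

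Whether the hag1 difference was itself other in explants than in roots was tested with 1 added term. edgeR called 0 of 135 members higher and 0 lower, as it did for all loci (0.0%). In simulated counts it recovered 11% of 4-fold changes in this term. DESeq2 called 0 members (0.0226% of all loci higher, 0.271% lower, 0.294% in all), and so did limma (0.0%). At an unadjusted p under 0.05 were 1551 of all 18710 loci and 10 of the members. AT5G40910 and the adjacent pseudogene AT5G40920 had the lowest standard errors among them, and were singled out after their values were seen. AT5G40910 had 64.4, 169.7, 144 and 148 CPM in Col and 147, 127, 115 and 128 CPM in hag1, with the Col root library the low one. AT5G40920 had 20.1, 87.3, 65.4 and 53.0 CPM in Col and 48.0, 73.2, 56.9 and 46.1 CPM in hag1, likewise lowest in the Col root. Their terms were -1.50 and -1.48 on the log2 scale (edgeR adjusted p = 0.599 and 0.599).

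Members lay on all 5 chromosomes, often side by side. The largest group, 10 members on chr1:27409237-27445980 (TAIR10), ran from AT1G72840 to AT1G72950 and held AT1G72900 and AT1G72940. It summed to 112, 375, 289 and 333 CPM in Col and to 152, 430, 343 and 330 CPM in hag1. Its members did not move as one: of 9 tested on CIM 4 were higher (AT1G72890, AT1G72900, AT1G72910 and AT1G72940) and 2 lower (AT1G72860 and AT1G72870). AT1G72870 had 107, 8, 8 and 14 reads in Col and 62, 19, 13 and 13 reads in hag1, with the root libraries highest, the reverse of AT1G72900. AT1G72890 has several transcript models. There were 3 groups with 7 members each. The one on chr1:21690962-21832116, of CC and NB-ARC genes, had 3 of 6 tested members higher on CIM and 0 lower, and 2 higher at the late step, both with a near-identical copy. The one on chromosome 4 with RPP4 and AT4G16920 had 3 of 6 higher on CIM, after which RPP4 rose late and AT4G16920 fell. The one on chr5:18114666-18186495, with LAZ5, had 0 of 7 higher and 1 lower on CIM, and 2 higher late; it summed to 65.5 CPM in Col roots and to 109 CPM after 2 weeks on SIM.

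The calls were also counted by sequence feature. Of tested members with a W-box, 25 of 88 were higher on CIM and 10 lower, and of those without, 21 of 47 were higher and 4 lower. Among all loci tested, 12.7% were higher and 17.0% lower on CIM. A W-box stood in 54.3% of members higher on CIM, 71.4% of those lower and 70.7% of those not called. Of all tested loci 29.8% had one, and 32.2% of all loci higher on CIM. Of 16 tested members with a miR472 site, 2 were higher and 2 lower on CIM. At 2 weeks on SIM 3 of them were higher and 5 lower than in roots, against 11.9% and 14.9% of all loci. These are descriptions of letters in windows and transcripts, and binding or cleavage was not measured.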

How the data were processed

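Total RNA of 8 samples was sequenced in libraries made by BGI with Illumina protocols, per the labels. The deposited counts are unique reads per transcript model, per the file headers, and the deposited RPKM values equal those counts scaled to model length in kilobases and to the unique reads of the library, checked on every line. Coverage, also deposited, is the percent of a model's length under reads. TAIR10 is the genome build per the submitters' processing notes; aligner, counter and use of strand were not given in the sources used here, so overlapping and antisense genes cannot be separated. Models with 0 reads are not listed. Reads were summed per locus; the 24 members with several models had a median coverage of 3.76 to 5.37%, against 44.1 to 63.2% for the 145 with 1 model, and are uncertain. The rule found 170 loci; 1 is not reported here.

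In edgeR 4.0.16 under R 4.3.3, filterByExpr and TMM scaling of the counts left 18710 loci and 135 members; 34 members had too few reads. A quasi-likelihood model with additive stage and genotype terms (3 residual degrees of freedom, biological coefficient of variation 0.264) was fitted to 8 libraries, with Benjamini-Hochberg adjustment at 0.05 over all loci. A second model added 1 term for hag1 in explants. Each SE (standard error) beside an edgeR log2 difference is the size of that difference divided by the square root of its quasi-likelihood F statistic. Simulated counts with the same spread for all loci tested the script. In each simulation 200 loci with a mean above 5 CPM were changed, 100 by 2-fold and 100 by 4-fold. In the data 5562 of 18710 loci were called for CIM versus root, so recovery there may differ from the simulated share. Members at lower levels are not covered by these shares. Of simulated 2-fold changes, 1% were recovered for the explant term and 48% for genotype. For CIM versus root and for SIM 2 days versus CIM it was 6% each. Of 4-fold changes, 11% were recovered for the explant term and 90 to 100% in the other comparisons. A count of 0 calls therefore does not show that smaller changes were absent. Ratios within a stage have exact 95% Clopper-Pearson intervals, which, like the bound of 3 reads, cover counting error only.

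The alternatives tried were scaling by total counts or by DESeq2 size factors, no filter on low counts, the DESeq2 1.42.0 Wald test, limma 3.58.1 on log2(RPKM + 1), members with 1 model, another read minimum, leaving out each library, and, added after seeing the data, members without a near-identical copy (at least 95% identity over at least 50% of the transcript; 8 members have one). The members and the gene lists were chosen with earlier results of these data known. Named were, per comparison and direction, the 6 largest called changes with at least 5 CPM in the higher stage and 1 sign in both genotypes; for genotype the 6 lowest p; within a stage the largest ratios, up to 4 per direction; called list genes; the 6 highest mean RPKM; and the largest genomic groups (at most 8 other loci between neighbours), of which 3 tied for the second place. AT2G14080 was named outside this rule, after its values were seen. RefSeq TAIR10.1 supplied sequences; 99.7% of nuclear models overlapped the same gene and strand. Of 105 listed symbols, 18 were in neither the files nor the reference, and those genes go by locus.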

Additional observations from a re-analysis of the deposited data

Results flagged for a closer look

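AT5G22690, a TIR-NBS-LRR gene, moved in opposite directions in the 2 genotypes between CIM and 2 days on SIM. It had 359, 206, 443 and 143 reads in Col and 469, 450, 192 and 200 reads in hag1. The log2 change over that step was 1.02 in Col (95% interval 0.77 to 1.26) and -1.23 in hag1 (-1.48 to -0.98), with counting error only. The difference at this step was not tested, since each group is 1 library. Levels in hag1 were above Col in roots, on CIM and after 2 weeks, and below it after 2 days on SIM. None of the 6 edgeR comparisons called this gene (log2 difference of hag1 to Col over stages 0.26, SE 0.36, edgeR adjusted p = 0.718).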

How the results depend on the processing

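Among counts of members called, the DESeq2 Wald test gave 2 higher and 7 lower for genotype, 5 lower for SIM 2 days versus CIM and 19 lower for SIM 2 weeks versus SIM 2 days. Without the low-count filter 1 member was lower for genotype. Total counts gave 8 higher for SIM 2 weeks versus SIM 2 days and 14 at least 2-fold lower in hag1 after 2 days on SIM. With at least 20 reads in place of 50, there were 9 members lower in hag1 roots, 15 lower after 2 days and 5 higher after 2 weeks on SIM. Leaving out 1 library at a time, members called on CIM ranged from 21 to 48 higher and 1 to 17 lower. For SIM 2 weeks versus SIM 2 days they ranged from 1 to 13 higher and 0 to 10 lower, and for SIM 2 weeks versus root from 11 to 31 higher and 0 to 19 lower. For genotype, the explant term and SIM 2 days versus CIM they were 0 in each such fit. Other counts stayed within 1.5 times, members with 1 model or without a near-identical copy among them. No named member's difference changed sign. The members' median for hag1 versus Col, 0.03, did: it was -0.02 with total counts, -0.01 without the filter, -0.02 with limma, -0.00085 with DESeq2, and -0.06 to 0.06 with 1 library left out. That for SIM 2 weeks versus SIM 2 days, -0.04, was 0.01 in members with 1 model. With 3 residual degrees of freedom the calls depend on all 8 libraries of the fit. Fits without 1 library have fewer, and without shares of all loci their lower counts cannot be told from a general loss of power. Members with few reads have wide counting error. No paired analysis was possible because replicate numbers do not exist with 1 library per group; the additive model already compares genotypes within stages and stages within genotypes.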
